A study of Homo sapiens with 3 samples.

Results

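The heat shock proteins and J-domain co-chaperones of LX-2 cells were described here across a vehicle library and 2 libraries of cells given rhFGF19. Members were the genes whose symbol was HSPB, DNAJA, DNAJB or DNAJC followed by a number, or HSPA followed by a number and at most 1 letter, together with HSPD1, HSPE1, HSPH1, HSP90AA1 and HSP90AB1. HSPA5, DNAJB9, DNAJB11 and DNAJC3, which serve the endoplasmic reticulum, were left out by name, and a row had to list a protein-coding transcript. Of the 26108 rows of the expression table, 70 matched the names, 4 were left out by name and 3 (DNAJA4, DNAJB3 and HSPA7) listed no protein-coding transcript. The remaining 63 rows covered 62 symbols, because HSPA14 was listed under 2 overlapping identifiers. They were 25 rows of heat shock proteins and 38 of J-domain proteins. They were picked by symbol and transcript type, not by a cut on expression, but with earlier results of these data known.

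LX-2 is an established line of human hepatic stellate cells, the liver cells that turn into collagen-secreting myofibroblasts, and rhFGF19 is recombinant human FGF19, a hormone-like fibroblast growth factor. The groups were vehicle, 50 ng/mL rhFGF19 and 100 ng/mL rhFGF19, with 1 library in each, so no difference below has a replicate check and none has a p-value. The doses follow the sample titles and agent fields, whereas the description fields exchange them between the treated libraries and give 72 and 73 h where the design text gives 24 h. The question of the comparison was which genes differ after rhFGF19 and whether the doses differ from each other.

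Chaperones of the HSP70 class bind unfolded stretches of protein and release them as they hydrolyse ATP. J-domain proteins carry clients to HSP70 and stimulate that hydrolysis, and HSP110 proteins and other exchange factors let the ADP go again. HSP90 then matures kinases, receptors and other clients, the HSPD1 and HSPE1 chaperonin encloses proteins inside mitochondria, and small heat shock proteins hold unfolded proteins without ATP. Under heat and other protein stress the transcription factor HSF1 binds heat shock elements, which are inverted repeats of the unit GAA, in front of some of these genes, among which HSPA1A, HSPA1B, HSPA6, HSPH1, DNAJB1 and HSPB1 are classical targets. Other members, such as HSPA8, HSP90AB1, HSPA9 and most J-domain proteins, are made constantly in nearly every cell.

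Heat shock elements before the RefSeq starts of the members are shown first, since the response to protein stress runs through them. The promoter table (RefSeq, GRCh38.p14) held 56 of the 62 member symbols, and the 250 bases before each RefSeq start were searched on both strands for GAANNTTC or TTCNNGAA, which is a pair of units, and for 3 alternating units spaced by 2 bases. The 3-unit form includes the pair. A pair stood before the start of 15 members (26.8%, against 11.6% of all 35116 promoters), and 3 units before that of 5 members (8.93%, against 0.441%). The 5 were HSPA8, HSP90AA1, HSPD1, HSPA6 and DNAJB6, and their elements are shown on the strand of the gene, with units in capitals. The RefSeq start is not always that of the deposited row. The elements of HSPA8, HSP90AA1 and HSPD1 lay inside the span of their row, 858 and 1033, 52561 and 184 bases past its first base, and all their bases were in annotated GENCODE exons. That of DNAJB6 lay 1486 bases into its row and in no annotated exon, and that of HSPA6 lay outside its row.
HSPA8, chr11:123062348-123062372, minus strand, 230 to 218 bases before the start: gagcttGAAagTTCcaGAAcgctgc
HSPA8, chr11:123062173-123062197, minus strand, 55 to 43 bases before the start: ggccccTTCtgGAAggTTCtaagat
HSP90AA1, chr14:102087114-102087138, minus strand, 88 to 76 bases before the start: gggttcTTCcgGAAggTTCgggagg
HSPD1, chr2:197500062-197500090, minus strand, 4 units, 245 to 228 bases before the start: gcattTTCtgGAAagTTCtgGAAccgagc
HSPA6, chr1:161524460-161524484, plus strand, 74 to 62 bases before the start: gaaaggTTCgcGAAagTTCgcggcg
DNAJB6, chr7:157336867-157336891, plus strand, 131 to 119 bases before the start: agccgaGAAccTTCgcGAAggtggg

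HSPA1A and HSPA1B, a pair of neighbouring copies on chromosome 6 with 9791 bases between them, had 1 pair of units each at nearly the same distance from the start. The stretches below are those within 120 bases of the start that lie outside annotated exons, and they show how alike the copies are. Both windows also held a TATA box (TATAAA, on the strand of the gene within 60 bases of the start, in 7.14% of members and 2.78% of all promoters) and a CCAAT box (CCAAT, in 33.9% and 32.0%).
HSPA1A, chr6:31815423-31815463, plus strand, 120 to 80 bases before the start: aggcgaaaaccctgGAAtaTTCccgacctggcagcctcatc
HSPA1B, chr6:31827618-31827734, plus strand, 120 to 4 bases before the start: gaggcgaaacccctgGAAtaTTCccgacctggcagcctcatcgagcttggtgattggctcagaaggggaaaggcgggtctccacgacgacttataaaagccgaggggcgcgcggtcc

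No pair matched before the RefSeq start of DNAJB1, the main J-domain partner of inducible HSP70, whose 120 bases before that start are given for comparison and lie inside the span of its row, in no annotated exon. The absence says only that these exact letters are not in this window.
DNAJB1, chr19:14517938-14518057, minus strand, 120 to 1 bases before the start: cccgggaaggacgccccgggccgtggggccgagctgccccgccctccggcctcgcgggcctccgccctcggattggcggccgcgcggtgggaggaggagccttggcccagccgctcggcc

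Levels were deposited as FPKM, the fragments on each kilobase of a transcript relative to the size of its library. They are thus adjusted for transcript length and library size, but comparisons between libraries still depend on the scaling, as given at the end. FPKM keeps no read count, so the depth of each library is unknown and no counting interval can be given. Sets of 3 values below stand in the order vehicle, 50 and 100 ng/mL, and pairs of fold changes in the order 50 and 100 ng/mL. The table's FPKM summed to 302243, 276690 and 281606. Of the stellate markers, 11 of the 17 that were listed had at least 1 FPKM in all libraries, with VIM at 439, 654 and 649 FPKM, TIMP1 at 308, 184 and 193 FPKM and TAGLN at 223, 118 and 126 FPKM, whereas DES, LRAT and PDGFRA stayed under 0.1 FPKM throughout. Of 10 hepatocyte markers, 7 stayed under 0.1 FPKM, and those at 1 FPKM or more were SERPINA1 (8.93, 9.62 and 9.11 FPKM) and ALB (2.16, 2.49 and 1.89 FPKM). None of the 4 epithelial or 6 endothelial markers listed had 1 FPKM in all libraries. Of the 5 blood cell markers listed, CD68 (47.5, 44.2 and 39.8 FPKM) and CD14 (4.28, 2.76 and 2.54 FPKM) did. In bulk RNA, fewer cells that make a transcript and less of it per cell cannot be told apart.

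All members together summed to 901, 1507 and 1488 FPKM, which was 0.298%, 0.545% and 0.528% of the table's total. By summed FPKM the members thus held a larger share of both treated libraries, by nearly the same amount. Other chaperone genes are not in this share, and it is not corrected for GC content. Members with at least 1 FPKM numbered 37, 46 and 47, beside 8890, 10925 and 10894 of all rows, which also numbered more after rhFGF19. In the vehicle library the highest members were HSP90AB1 (125 FPKM), HSPA1A (115 FPKM), HSPA1B (113 FPKM), HSPB1 (102 FPKM), HSPA8 (98.7 FPKM) and DNAJC5 (95.1 FPKM), and these 6 made up 71.9% of the members' sum. The same 6 genes made up 69.5% at each dose, but HSPA8 moved from the fifth to the first place among the members, and from place 538 to 84 and 87 among all rows of the table.

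**Figure D1:**
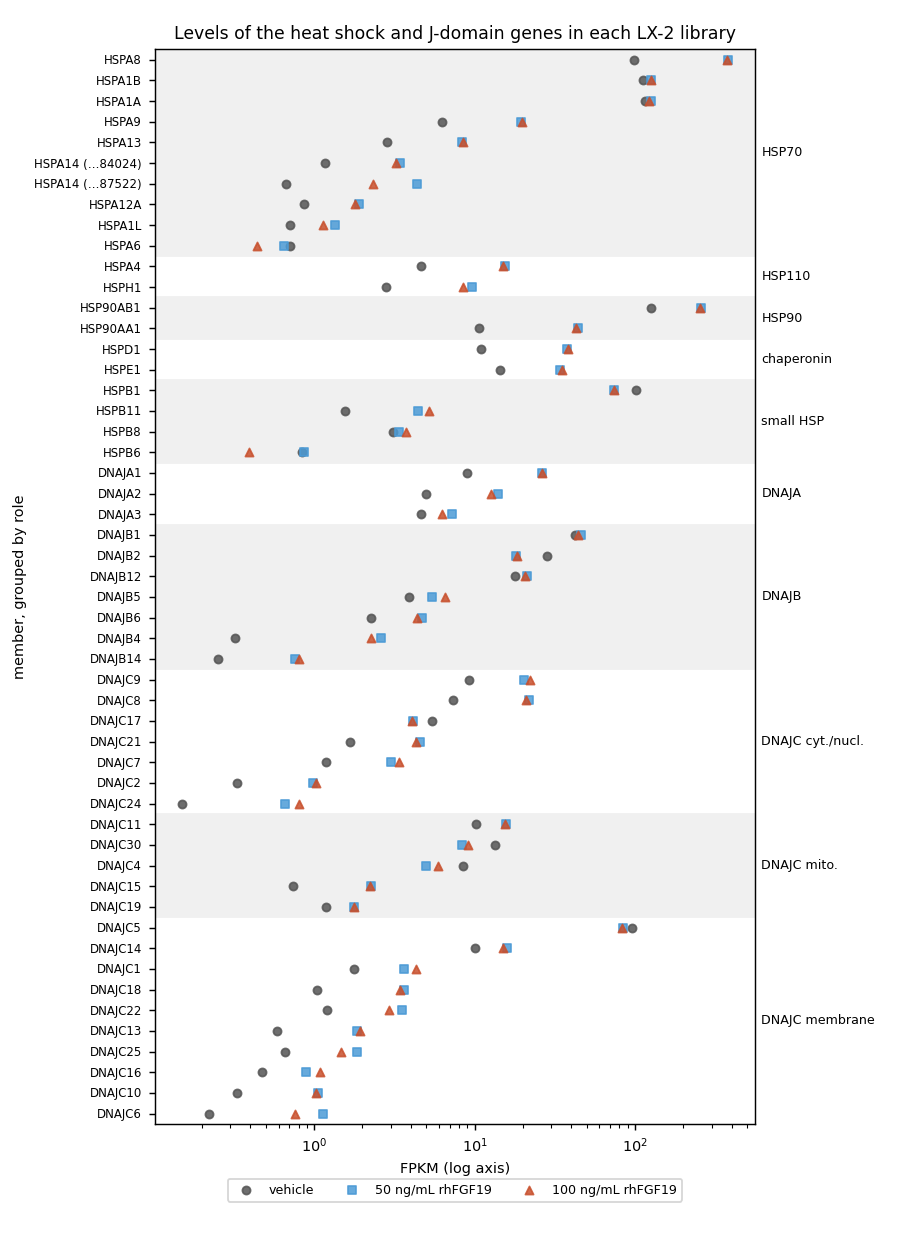
FPKM (log axis) of the 52 member rows with a mean of at least 0.5 FPKM, in the vehicle library (circles), at 50 ng/mL (squares) and at 100 ng/mL rhFGF19 (triangles), grouped by role; HSPA14 has 2 rows, marked by the end of their identifiers. The treated libraries lie close together for most genes, to the right of vehicle for HSPA8 (98.7, 380 and 374 FPKM) and to the left for HSPB1 (102, 74.4 and 74.2 FPKM).

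Fold changes were differences of log2(FPKM + 0.1), which understates the change of low genes, over rows with a mean of at least 0.5 FPKM over the 3 libraries. Of the 63 member rows 52 passed this filter, 20 of heat shock proteins and 32 of J-domain proteins, and the other 11 are given at the end. Differences above 1 (2-fold) were found for 32 members after 50 ng/mL and for 31 after 100 ng/mL, and 30 members were shared. Of the 30, 6 (DNAJB4, DNAJB14, DNAJC2, DNAJC6, DNAJC10 and DNAJC24) had a vehicle value under 0.5 FPKM and passed the filter only through the treated libraries. Among all 12447 rows that passed, 39.4% after 50 ng/mL, 38.5% after 100 ng/mL and 36.2% after both were as much higher, and 1096 of the 4508 rows higher after both also had a vehicle value under 0.5 FPKM. No member was 2-fold lower in either library, against 1.78% and 1.58% of all rows. The members' median log2 fold change was 1.25 at both doses, and that of all rows was 0.62 and 0.61, so the members' median lay above a table that was itself shifted. The comparisons share the 1 vehicle library, so that their likeness is no sign of stability. Values below 0 in both libraries were found for 7 members, DNAJB2, DNAJC4, DNAJC5, DNAJC17, DNAJC30, HSPA6 and HSPB1, and for 31.9% of all rows.

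**Figure D2:**
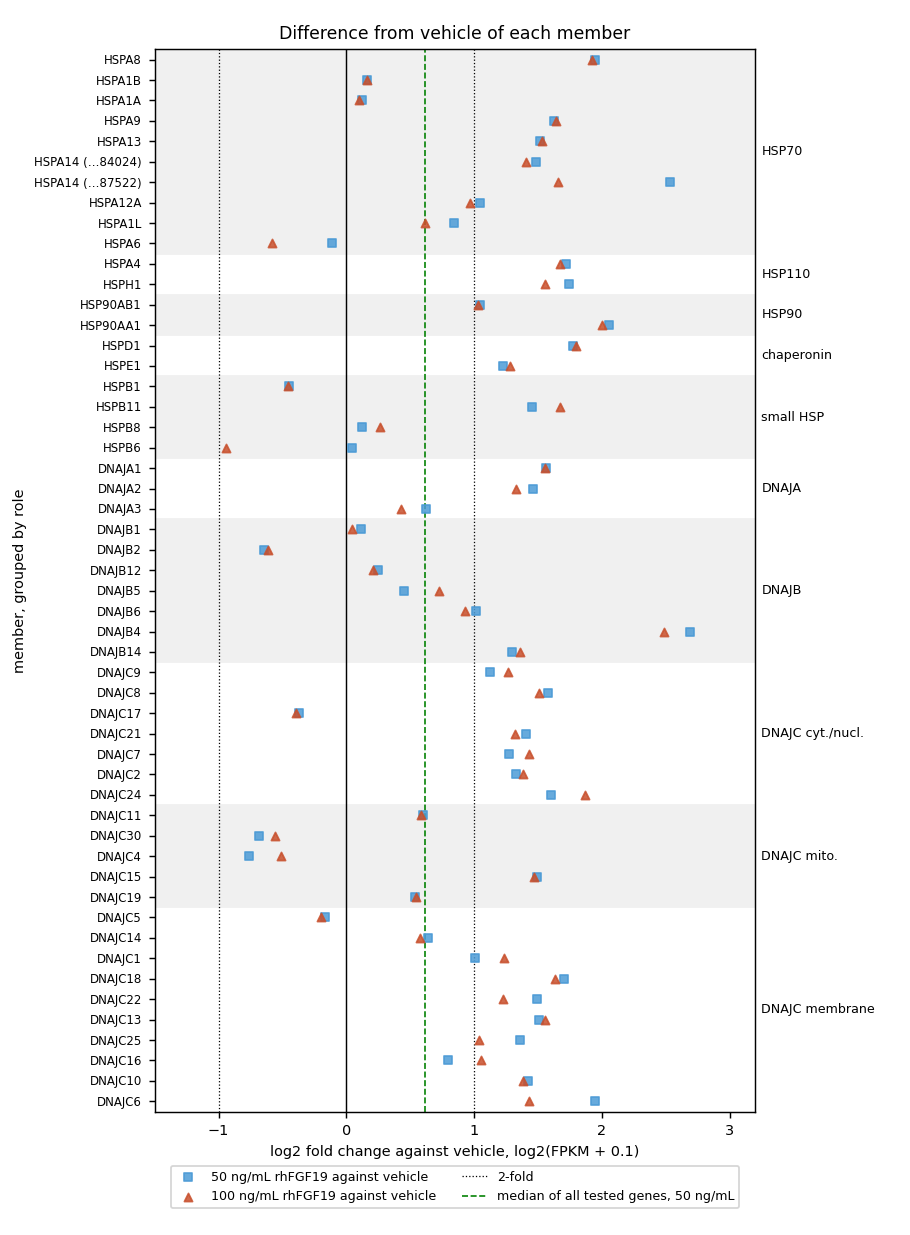
Log2 fold change against vehicle of the 52 members, at 50 ng/mL (squares) and 100 ng/mL rhFGF19 (triangles), grouped by role; dotted lines mark 2-fold and the dashed line the median of all tested rows at 50 ng/mL, 0.62. HSP90AA1 and HSPA8 lie near 2 and DNAJB4 above 2, while HSPA1A, HSPA1B and DNAJB1 lie near 0 and HSPB1 below it.

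The difference from vehicle followed the base composition of the transcripts, in the members and in the table as a whole. Spearman's rho between GC content and the log2 fold change at 50 ng/mL was -0.77 over the 52 members and -0.77 over 12397 rows with a known GC content, as a description over genes that share the same libraries. Members 2-fold higher in both libraries had a median GC content of 41.8% (34.9 to 52.7%), the other 22 members had 55.4% (41.1 to 65.7%), and the 7 below 0 had 58.4%. Below 42% GC, 16 of 17 members were 2-fold higher at 50 ng/mL and their median was 1.46, against 1.51 for all rows. From 42 to 46% it was 8 of 9 with a median of 1.63, against 1.37, and from 46 to 50% it was 7 of 8 with 1.14, against 1.05. From 50 to 55% it was 1 of 6 with a median of 0.36, against 0.43. At 55% and above none of 12 was 2-fold higher, and their median was -0.033, against -0.37 for all rows. Between the doses GC content had no such relation in the members (rho -0.023). The treatment and the composition trend rest on the same single vehicle library and cannot be told apart. The difference of a member from the table's trend on GC content is called its GC-corrected value below. It is plotted for every member that passed and given in the text for some.

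HSPA8, the constantly made cytosolic HSP70 (ENSG00000109971, chr11:123057489-123063230 on GRCh38), had 98.7 FPKM with vehicle and 380 and 374 FPKM with rhFGF19. Both treated libraries were far above vehicle, 3.85-fold and 3.78-fold (log2 fold changes 1.94 and 1.92), and HSPA8 became the most abundant member. Its GC content was 46.03%, and its GC-corrected values were 0.76 at each dose, so it exceeded the genes of similar composition. The elements printed above include 2 before the RefSeq start of HSPA8, both within annotated exons, counted for any gene on either strand. It accounted for 10.9% of the members' summed FPKM in the vehicle library and for 25.2% and 25.1% after rhFGF19.

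The stress-inducible HSP70 genes did not share that difference. HSPA1A (chr6:31815543-31817946) had 115, 125 and 123 FPKM, and HSPA1B (chr6:31827738-31830254) had 113, 126 and 126 FPKM. All 3 libraries lay within a narrow range for both genes, and the log2 fold changes were 0.12 and 0.096 for HSPA1A and 0.16 at each dose for HSPA1B. When the treated libraries were scaled so that their median ratio to vehicle, over rows with at least 1 FPKM in all libraries, was 1, the signs turned, to -0.11 and -0.13 for HSPA1A and -0.071 and -0.063 for HSPA1B. Their GC content was high (59.7% and 58.7%), and their GC-corrected values were 0.43 and 0.39 for HSPA1A and 0.41 and 0.39 for HSPA1B. The longest listed transcripts of the copies were identical at 2282 of 2401 aligned bases (95.04%), and 72.6% of the 50-base windows of HSPA1A occurred unchanged in HSPA1B, so the split of reads between them is uncertain. Their sum was 228, 251 and 249 FPKM. The ratio of HSPA8 to that sum went from 0.433 to 1.51 and 1.5, which exchanged the order of the constant and the inducible HSP70. This ratio is not corrected for GC content. At 50 ng/mL the table's trend was 1.18 at the GC content of HSPA8, -0.31 at that of HSPA1A and -0.25 at that of HSPA1B.

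HSPA6, the HSP70 gene that is nearly silent without strong stress, had 0.71, 0.65 and 0.44 FPKM. It stayed low in all libraries, although its window held a 3-unit element, and its log2 fold changes were -0.11 and -0.58, of which the first was above 0 once values were rescaled to TPM. HSPA1L, which lies head to head with HSPA1A with 259 bases between them and is known from the testis, had 0.71, 1.35 and 1.14 FPKM, with log2 fold changes of 0.84 and 0.61. Its one pair of units is the same stretch as that of HSPA1A, read from the other strand.

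The HSP70 proteins of other compartments were higher in both treated libraries. HSPA9, which pulls proteins into the mitochondrial matrix, had 6.25, 19.5 and 19.7 FPKM, a log2 fold change of 1.63 and 1.64. HSPA13, a microsomal HSP70, had 2.85, 8.33 and 8.42 FPKM (1.51 and 1.53). HSPA13 had the lowest GC content of the members, 34.9%, and its GC-corrected values were -0.022 and -0.00094, the level of genes of like composition. HSPA14, which sits on the ribosome, had 1.16, 3.43 and 3.24 FPKM in its row ENSG00000284024. Its other row, ENSG00000187522, had 0.67, 4.36 and 2.33 FPKM, and since the rows overlap by 8713 bases on the same strand their split is uncertain. HSPA12A, a distant relative, had 0.87, 1.90 and 1.8 FPKM, with log2 fold changes of 1.04 and 0.97 that lie on either side of 2-fold. In all, 6 of the 10 HSP70 rows that passed were 2-fold higher after 50 ng/mL and 5 after 100 ng/mL, with medians of 1.27 and 1.19. Among all rows 39.4% and 38.5% were. The median GC content of the 10 rows was 47.8%, and their median GC-corrected values were 0.36 and 0.28.

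Both HSP110 exchange factors that passed were more than 2-fold higher. HSPA4 had 4.65, 15.6 and 15.0 FPKM (log2 fold changes 1.72 and 1.67), and HSPH1, itself a target of HSF1 under heat, had 2.81, 9.65 and 8.44 FPKM (1.74 and 1.55). They share low GC contents of 41.97% and 39.8%, and their GC-corrected values were 0.30 and 0.27 for HSPA4 and 0.27 and 0.090 for HSPH1.

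The cytosolic HSP90 genes differed from each other in size of change. HSP90AA1, the more inducible form (chr14:102080742-102139699), had 10.6 FPKM with vehicle and 44.4 and 42.7 FPKM with rhFGF19. HSP90AB1, the constant form (chr6:44246166-44253888), had 125, 258 and 255 FPKM. The log2 fold changes were 2.06 and 2.0 for HSP90AA1 and 1.04 and 1.03 for HSP90AB1, and the ratio of HSP90AB1 to HSP90AA1 went from 11.8 to 5.81 and 5.98. The GC-corrected values kept HSP90AA1 above the table (0.72 and 0.68) and put HSP90AB1 at its level (-0.025 and -0.026). Their longest listed transcripts were identical at 74.4% of the aligned bases and shared no 50-base window. The 3-unit element of HSP90AA1 printed above lay before its RefSeq start but inside its deposited span, and no pair of units matched before the RefSeq start of HSP90AB1.

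The mitochondrial chaperonin genes HSPD1 and HSPE1, which encode the barrel and its lid, start head to head on chromosome 2 and overlap by 135 bases. HSPD1 had 10.9, 37.7 and 38.2 FPKM and HSPE1 had 14.4, 34.0 and 35.2 FPKM. Both were higher at each dose, with log2 fold changes of 1.78 and 1.8 for HSPD1 and of 1.23 and 1.28 for HSPE1. The ratio of HSPD1 to HSPE1 went from 0.757 to 1.11 and 1.09. Their GC-corrected values were 0.45 and 0.49 for HSPD1 and 0.085 and 0.15 for HSPE1.

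The small heat shock proteins were split. HSPB1, the abundant actin-protecting member, had 102, 74.4 and 74.2 FPKM. The treated libraries were lower, with log2 fold changes of -0.45 and -0.46, and with its GC content of 64.3% HSPB1 lay at the level of genes of like composition (0.044 and 0.024). HSPB8, which works with BAG3 in selective autophagy, had 3.10, 3.39 and 3.75 FPKM (0.13 and 0.27). HSPB6 had 0.84, 0.87 and 0.39 FPKM, and it was the passing member in which the doses lay farthest apart. HSPB11, which was named with this family but is a part of the intraflagellar transport machinery, had 1.56, 4.44 and 5.18 FPKM (1.45 and 1.67). It was thus the only 1 of the 4 small heat shock rows that passed to be 2-fold higher. Its GC content was 36.3%, against 51.2% for HSPB8, 64.3% for HSPB1 and 65.7% for HSPB6. The GC-corrected values of HSPB11 were -0.072 and 0.15.

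Among the DNAJA proteins, the general partners of HSP70, DNAJA1 had 8.92, 26.5 and 26.4 FPKM, a log2 fold change of 1.56 at each dose. DNAJA2 had 5.01, 13.98 and 12.7 FPKM (1.46 and 1.32). DNAJA3, the mitochondrial form, had 4.62, 7.18 and 6.25 FPKM (0.63 and 0.43). The GC contents were 41.7%, 41.3% and 52.0%, and the GC-corrected values ran from 0.018 to 0.13 at the lower dose and from -0.10 to 0.14 at the higher dose.

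The DNAJB proteins ranged from below to far above vehicle. DNAJB1 had 42.4, 45.9 and 43.8 FPKM, with all libraries close together and log2 fold changes of 0.11 and 0.046, which turned to -0.11 and -0.18 with the median ratio set to 1. Like HSPA1A, HSPA1B and HSPB1, this classical HSF1 target was high in the vehicle library and was not 2-fold apart at either dose. The other classical targets named above were low in that library. HSPA6 had 0.71 FPKM there and lower values after rhFGF19, and HSPH1 had 2.81 FPKM and values more than 2-fold higher. These targets also differed in GC content, which was 39.8% for HSPH1 and from 53.3% (DNAJB1) to 64.3% (HSPB1) for the others. The GC-corrected values were -0.21 and -0.27 for DNAJB1, 0.11 and -0.37 for HSPA6, and 0.27 and 0.090 for HSPH1. The targets named here are a selection. HSP90AA1, the more inducible HSP90 form, was 2-fold higher at both doses, with GC-corrected values of 0.72 and 0.68. DNAJB4, a close relative of DNAJB1, had 0.32, 2.61 and 2.25 FPKM. No passing member had a higher fold change than its 2.69 at the lower dose or its 2.48 at the higher dose, and it was the only member above 1 at both doses once the trend on GC content was removed (1.21 and 1.02). Its vehicle level was near the filter, where 2 decimals of FPKM are a coarse measure. DNAJB2, which carries ubiquitin-binding motifs, had 28.3, 18.1 and 18.5 FPKM (-0.64 and -0.61). DNAJB12, a membrane protein of the endoplasmic reticulum, had 17.8, 21.2 and 20.6 FPKM (0.25 and 0.21). DNAJB5 had 3.91, 5.39 and 6.52 FPKM (0.45 and 0.72). DNAJB6, which suppresses aggregation, had 2.27, 4.70 and 4.40 FPKM (1.02 and 0.93, on either side of 2-fold), and DNAJB14 had 0.25, 0.76 and 0.80 FPKM (1.3 and 1.36). Of the 7 that passed, 3 and 2 were 2-fold higher, beside 39.4% and 38.5% of all rows.

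The DNAJC proteins of the cytosol and nucleus were mostly 2-fold higher, 6 of 7 at each dose, beside 39.4% and 38.5% of all rows. DNAJC8, a splicing-associated protein, had 7.31, 22.0 and 21.0 FPKM (1.57 and 1.51), and DNAJC9, a histone chaperone, had 9.23, 20.3 and 22.3 FPKM (1.13 and 1.26). DNAJC21, a factor of ribosome maturation, had 1.67, 4.59 and 4.32 FPKM (1.41 and 1.32), and DNAJC7, which binds both HSP70 and HSP90, had 1.19, 3.01 and 3.37 FPKM (1.27 and 1.43). DNAJC2, the ribosome-bound partner of HSPA14, had 0.33, 0.98 and 1.02 FPKM (1.33 and 1.38). DNAJC24, of the diphthamide pathway, had 0.15, 0.66 and 0.81 FPKM (1.60 and 1.86). DNAJC17 was the exception with 5.42, 4.16 and 4.10 FPKM (-0.37 and -0.39), and it was also the one with a GC content above 50% (56.0%). The median GC content of this group was 40.9%, and its median GC-corrected values were -0.054 and -0.077.

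The DNAJC proteins of mitochondria were split between higher and lower values. DNAJC15, a partner of the import motor, had 0.74, 2.26 and 2.23 FPKM (1.49 and 1.47). DNAJC19, which belongs to the same motor, had 1.19, 1.77 and 1.78 FPKM, with a log2 fold change of 0.54 at each dose. With a GC content of 41.1%, DNAJC19 lay farthest below genes of like composition, at -0.92 and -0.89. DNAJC11, of the inner membrane organizing complex, had 10.2, 15.6 and 15.4 FPKM (0.60 and 0.58). DNAJC30 had 13.4, 8.30 and 9.10 FPKM (-0.69 and -0.56), and DNAJC4 had 8.49, 4.96 and 5.91 FPKM (-0.76 and -0.52). DNAJC30 remained below the trend on GC content, at -0.86 and -0.72. DNAJC30 shares 429 bases with BUD23 on the other strand, which had 31.3, 20.4 and 21.5 FPKM, and the strand setting of the counting was not given in the sources used here.

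Among the DNAJC proteins of the endoplasmic reticulum, vesicles and other membranes, 7 of 10 after 50 ng/mL and 8 of 10 after 100 ng/mL were 2-fold higher. Among all rows 39.4% and 38.5% were. The median GC content of this group was 44.2%, and its median GC-corrected values were 0.11 and 0.029. DNAJC5, the cysteine string protein of vesicles, was by far the most abundant, with 95.1, 84.5 and 83.01 FPKM. All its libraries lay close together, with log2 fold changes of -0.17 and -0.20, which were above 0 after quantile normalization. DNAJC14 had 10.1, 15.9 and 15.1 FPKM (0.64 and 0.57). The GC-corrected values of DNAJC14 were 0.58 and 0.51, but 0.23 and 0.18 when the GC content of the longest listed transcript was used, and another row on the same strand overlaps it by 6587 bases. DNAJC1, a membrane protein of the endoplasmic reticulum, had 1.77, 3.65 and 4.29 FPKM (1.004 and 1.23) and stood above its trend by 0.60 and 0.84. DNAJC10, a disulphide reductase of that compartment, had 0.33, 1.05 and 1.02 FPKM (1.42 and 1.38). DNAJC13, of endosomes, had 0.59, 1.86 and 1.93 FPKM (1.51 and 1.56). DNAJC6, which uncoats clathrin vesicles, had 0.22, 1.13 and 0.76 FPKM (1.94 and 1.43). DNAJC16 (0.47, 0.89 and 1.08 FPKM), DNAJC18 (1.04, 3.62 and 3.44 FPKM), DNAJC22 (1.20, 3.55 and 2.94 FPKM) and DNAJC25 (0.66, 1.85 and 1.46 FPKM) were higher in both treated libraries too. DNAJC25 shares 22960 bases on the same strand with the readthrough gene DNAJC25-GNG10 (0.99, 4.40 and 4.90 FPKM), so their split is uncertain.

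After removal of the trend on GC content, the members' medians were 0.10 and 0.082. Only DNAJB4 and the HSPA14 row ENSG00000187522 were then 2-fold higher at 50 ng/mL, and only DNAJB4 at 100 ng/mL, where 3.85% and 3.39% of all rows were. No member was 2-fold lower, against 5.07% and 4.52% of all rows. A GC-corrected value above 0.5 at both doses was found for 5 members (DNAJB4, DNAJC1, DNAJC14, HSP90AA1 and HSPA8), against 11.9% of all rows, and one below -0.5 for 2 members (DNAJC19 and DNAJC30), against 12.7%. The other members lay within 0.5 of the trend in at least 1 of the treated libraries.

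**Figure D3:**
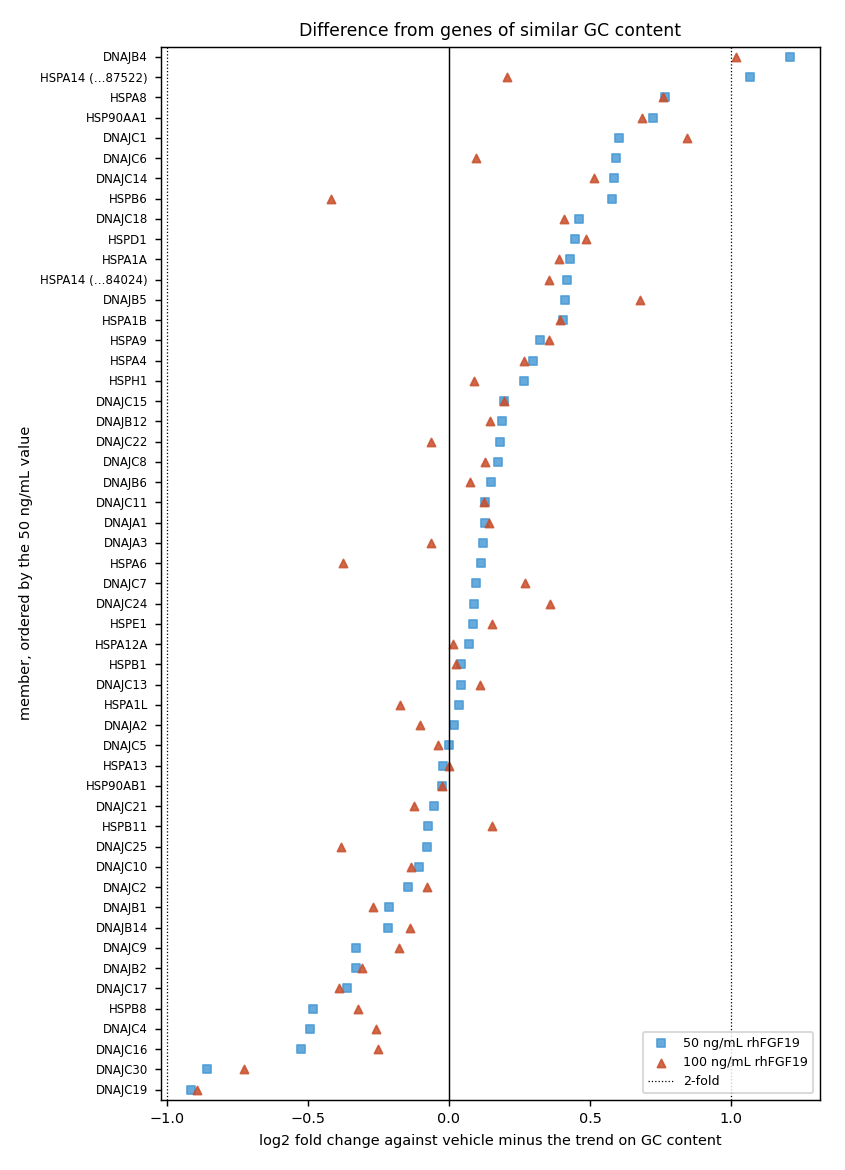
Log2 fold change against vehicle minus the trend on GC content, for the 52 members at 50 ng/mL (squares) and 100 ng/mL (triangles), ordered by the value at 50 ng/mL; dotted lines mark 2-fold. Most members lie within 0.5 of 0, DNAJB4 lies past 1 at both doses, HSPA8 and HSP90AA1 lie near 0.7, and DNAJC19 and DNAJC30 lie lowest.

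Members with a heat shock element did not move as a block. The 5 members with 3 units that passed had log2 fold changes at 50 ng/mL from -0.11 (HSPA6) to 2.06 (HSP90AA1), with a median of 1.78. The 8 that passed with a single pair or separate pairs of units (DNAJA1, DNAJC15, HSPA1A, HSPA1B, HSPA1L, HSPB1, HSPB6 and HSPB8) had a median of 0.14, and 2 of them, DNAJA1 and DNAJC15, were 2-fold higher. The 33 without a pair had a median of 1.23, and 20 of them were 2-fold higher. A single RefSeq start was used per symbol, that of the lowest coordinate, and the grouping depends on it. HSPE1 is counted without a pair, although the HSPD1 element lies ahead of the start of the deposited HSPE1 row. After removal of the trend on GC content the medians of the 3 groups were 0.45, 0.16 and 0.018. These are descriptions of few genes, and a match to these letters does not show that a factor binds.

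The doses were alike in nearly every member. On the log2(FPKM + 0.1) scale no member that passed the filter differed 2-fold between 50 and 100 ng/mL, where 1.74% of all rows did, and the SD of the difference was 0.24 on the log2 scale over the members and 0.34 over all rows. Among these members the difference was farthest from 0 for HSPB6, whose 0.87 FPKM after 50 ng/mL and 0.39 after 100 ng/mL are over 2-fold apart without the pseudocount, followed by the HSPA14 row ENSG00000187522 with 4.36 and 2.33 FPKM. Under the filter, DNAJC28 (0.04 and 0.26 FPKM) and HSPB3 (0 and 0.14 FPKM) were farther apart. All these genes are low, where 2 decimals and few fragments limit the precision.

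The other genes of the chaperone system were taken as lists, with counts 2-fold higher at 50 and 100 ng/mL beside the 39.4% and 38.5% of all rows. Of the 5 genes listed for the heat shock factors (HSF1, HSF2 and HSF4) and their binding proteins (HSBP1 and HSF2BP), HSF2 was the 1 that was 2-fold higher (0.68, 2.91 and 2.52 FPKM). HSF1, the factor of the heat shock response, had 23.6, 16.3 and 16.6 FPKM (log2 fold changes -0.53 and -0.50). With its GC content of 64.2%, HSF1 lay at the level of genes of like composition (-0.042 and -0.027). The GC content of HSF2 was 40.9%, and its GC-corrected values were 0.49 and 0.31. The TRiC chaperonin, which folds actin and tubulin, had 6 of 8 subunits 2-fold higher at both doses and a median of 1.65 and 1.62. CCT8 had 6.11, 25.8 and 26.8 FPKM and CCT2 had 5.82, 24.3 and 22.2 FPKM. The subunits CCT4, CCT5, CCT6A and TCP1 were also 2-fold higher, CCT3 was not (58.6, 82.7 and 82.9 FPKM), and CCT7 had lower values (240, 175 and 174 FPKM). All are parts of the same ring. The GC content ran from 38.4 to 44.7% for the 6 subunits that were 2-fold higher, and was 49.1% for CCT3 and 51.6% for CCT7. The GC-corrected values were above 0 at both doses for 6 subunits, -0.38 and -0.36 for CCT3 and -1.01 at each dose for CCT7.

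Of 23 HSP90 co-chaperones that passed, 9 were 2-fold higher after 50 ng/mL and 11 after 100 ng/mL, and another 9 had values below 0 at both doses. PTGES3, which stabilizes the closed clamp of HSP90, had 26.01, 63.3 and 62.8 FPKM (1.28 and 1.27). STIP1, which links HSP70 to HSP90, had 52.2, 81.5 and 76.6 FPKM (0.64 and 0.55). CDC37, the kinase co-chaperone, had 111, 72.2 and 74.4 FPKM (-0.62 and -0.58). NUDC had 71.6, 67.97 and 65.6 FPKM (-0.075 and -0.13). STUB1, a ubiquitin ligase for chaperone clients, had 78.8, 44.2 and 42.1 FPKM (-0.83 and -0.90). The other co-chaperones 2-fold higher at both doses were AHSA2P, CHORDC1, FKBP5, FNIP1, FNIP2, NUDCD2, PPID and SUGT1, with at most 6.81 FPKM (PPID at 100 ng/mL).

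Of the 13 HSP70 exchange factors and regulators that passed, 5 and 4 were 2-fold higher, and BAG2, BAG4, ST13 and BAG5 were so at both doses, as ST13 with 7.95, 22.5 and 22.3 FPKM shows. HSPBP1 had 72.1, 42.1 and 43.0 FPKM (-0.78 and -0.74), and BAG6 had 101, 96.5 and 94.8 FPKM (-0.069 and -0.095). HYOU1 had 54.5, 65.5 and 65.7 FPKM (0.26 and 0.27). BAG3 had 18.11, 30.95 and 31.58 FPKM (0.77 and 0.80). Its GC-corrected values were 1.04 and 1.06, and no other gene of this list was above 1 on that measure. Of 8 prefoldin subunits, which hand clients to TRiC, PFDN1, PFDN4 and VBP1 were 2-fold higher, while PFDN5 (108, 69.7 and 74.9 FPKM), UXT (116, 73.7 and 71.9 FPKM), PDRG1 (63.1, 49.1 and 47.7 FPKM) and PFDN2 (69.97, 66.7 and 73.5 FPKM) were not, and the median at the lower dose was -0.017. Of 12 mitochondrial chaperones and proteases, AFG3L2, CLPX and YME1L1 were 2-fold higher, 8 had values below 0 at both doses, and the median was -0.39 and -0.32. PHB and PHB2, the prohibitins, had 204, 129 and 129 FPKM and 205, 138 and 142 FPKM. Of the 4 J-domain or small heat shock genes with other symbols that passed, SEC63 was among those 2-fold higher at both doses (1.32, 4.33 and 3.83 FPKM), and CRYAB was listed at 0, 0.01 and 0.01 FPKM. Of 14 housekeeping genes 3 were 2-fold higher (HPRT1, TFRC and YWHAZ), with a median of 0.068, while ACTB had 1053, 1039 and 1035 FPKM and GAPDH had 5907, 3960 and 4048 FPKM.

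The endoplasmic reticulum chaperones left out by the rule were all 2-fold higher at both doses, with a median of 1.48 and 1.44. HSPA5 had 41.5, 116 and 113 FPKM and HSP90B1 had 17.3, 58.5 and 56.9 FPKM, beside DNAJB9, DNAJB11 and DNAJC3. After removal of the trend on GC content their medians were 0.23 and 0.091, and none remained 2-fold higher at either dose. The GC-corrected values were above 0 at both doses for HSPA5, HSP90B1 and DNAJC3, and below 0 at both doses for DNAJB9 and DNAJB11.

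**Figure D4:**
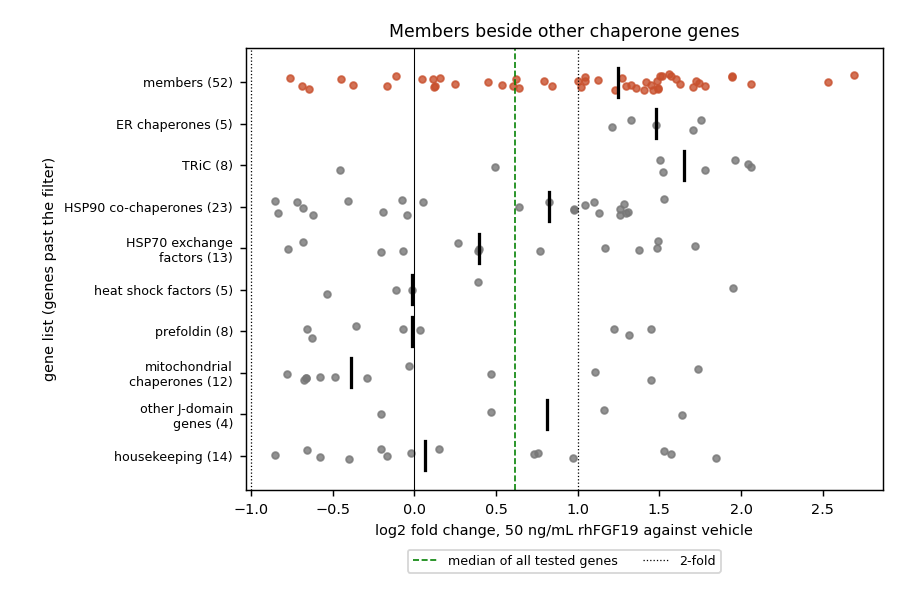
Log2 fold change at 50 ng/mL rhFGF19 against vehicle for the members and for the other chaperone lists (points are genes past the filter, thick bars medians); the dashed line is the median of all tested rows, 0.62, and dotted lines mark 2-fold. The members' median is 1.25, the TRiC subunits lie highest with 1.65, and the mitochondrial chaperones and proteases lowest with -0.39. With the GC trend subtracted, the medians were 0.10, 0.25 and -0.31, and those of the prefoldin subunits (-0.48) and housekeeping genes (-0.40) were lower.

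The 11 members under the filter had at most 0.40 FPKM in any library. HSPA12B had 0.40, 0.12 and 0.28 FPKM, HSPA2, the testis-rich HSP70, had 0.23, 0.36 and 0.27 FPKM, and HSPA4L had 0.11, 0.32 and 0.30 FPKM. HSPB9 had 0.33, 0.09 and 0.19 FPKM and DNAJC27 had 0.04, 0.33 and 0.33 FPKM. DNAJC28 reached 0.26 FPKM, HSPB3 0.14, DNAJB13 0.07, DNAJB7 0.06, DNAJC12 0.04 and DNAJB8 0.03. Several of these genes are known from the testis or muscle, and such levels do not allow a fold to be read.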

How the data were processed

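Poly(A) RNA of 1 LX-2 culture per group was sequenced in paired-end mode, per the labels. HISAT2 was the authors' aligner, and the deposited values are FPKM per gene, written to 2 decimals. The submitters' processing notes name Bowtie 0.12.2, HISAT2 2.0 and StringTie 1.3.0 and the builds hg19 and mm8 with no role for each, whereas the deposited coordinates overlap those of GRCh38 for 99.9% of 25531 identifiers found in GENCODE v29. FPKM keeps no counts, so depth is unknown, a count test was not possible and no interval is given. Another library total or a few very abundant genes would shift all FPKM of a library together.

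From the deposited FPKM, log2(FPKM + 0.1) was compared between single libraries over rows with a mean of at least 0.5 FPKM, with 2-fold (an absolute difference above 1) as the criterion, as in the study's methods. GC content and length were medians over each gene's listed transcripts in GENCODE v29. Trends on them were fitted over all rows by locally weighted regression (span 0.3). Transcripts were compared by global alignment. All members are named, and promoter sequence is shown for selected members. Of these, DNAJB1, DNAJB6, HSPA1A, HSPA1B and HSPA6 were chosen after their values were seen. Named genes of other lists were those 2-fold higher in both treated libraries or with a mean of at least 50 FPKM. HSF1, BAG3 and CRYAB were added after their values were seen. Some genes of the other lists are left unnamed and without values here. The members and lists were chosen with earlier results of these data known. Other pseudocounts, filters, scalings, thresholds and trends were tried as 12 alternatives, and 2 more were added after seeing the data. No protein sequences were used here. Calculations used statsmodels 0.14.6, SciPy 1.17.1, pandas 2.3.3 and NumPy 2.4.6 in Python 3.11.15, and the procedure was tested on simulated data.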

Additional observations from a re-analysis of the deposited data

Results flagged for a closer look

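HSPB6 had opposite signs at the doses, with log2 fold changes of 0.045 after 50 ng/mL and -0.94 after 100 ng/mL. The signs stayed opposite with TPM and with the GC trend removed. At 50 ng/mL HSPB6 fell below 0 with the median ratio to vehicle set to 0 (-0.16). It did so too with the length trend removed (-0.43) and after quantile normalization (-0.81). The difference between the doses was not tested, since each has 1 library, and the gene had 0.84, 0.87 and 0.39 FPKM. Among the 11 members under the filter on low values, 6 were above the vehicle library in both treated libraries, as were 34.9% of the 13661 rows under the filter, and such differences do not allow a fold to be read. At 50 ng/mL they were DNAJC27 (0.33 FPKM), HSPA2 (0.36 FPKM), HSPA4L (0.32 FPKM), DNAJB13 (0.05 FPKM), DNAJC12 (0.04 FPKM) and DNAJC28 (0.04 FPKM).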

How the results depend on the processing

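As reported, 32 members at 50 ng/mL and 31 at 100 ng/mL were 2-fold higher, 0 were lower, 0 were apart between the doses and the medians were 1.25. With a pseudocount of 1, 20 and 16 were higher and the medians were 0.76 and 0.63. With quantile normalization 15 and 12 were higher, 1 and 2 were lower, and the medians were 0.59 and 0.52. After removal of the GC trend 2 and 1 were higher, 1 was apart between the doses, and the medians were 0.10 and 0.082. With the GC content of the longest listed transcript, an alternative chosen after seeing the data, 4 and 1 were higher, 1 was apart, and the medians were 0.20 and 0.17. After removal of the length trend 14 and 13 were higher, 3 and 4 were lower, and the medians were 0.60 and 0.59. At a threshold of 2 on the log2 scale 3 and 2 were higher, and at 0.5 the numbers lower were 3 and 5 and the number apart was 3. With a pseudocount of 0.01, 1 was lower at 100 ng/mL and 1 apart, with no filter 2 were lower at 50 ng/mL and 2 apart, with the median log2 ratio to vehicle set to 0 for rows at 1 FPKM or more throughout, 1 was lower at 100 ng/mL, and with values rescaled to TPM 1 was apart. The cause was not tested, except that the GC and length settings subtract the trend by construction. The median over all rows, 0.62 at 50 ng/mL as reported, was 0.40 with the median ratio set to 0, 0.77 with TPM and 0.11 with quantile normalization. The share of all rows higher at 50 ng/mL was 39.4% as reported, 17.6% with a pseudocount of 1 and 9.49% with quantile normalization. It was 13.97% with the length trend removed, 1.86% at a threshold of 2 and 30.4% with the median ratio set to 0. With that ratio set to 0, DNAJB6 (0.79), DNAJC1 (0.78) and DNAJC9 (0.90) fell under 2-fold at 50 ng/mL. So did HSP90AB1 (0.82), HSPA12A (0.83) and HSPE1 (0.9998). Members past 2-fold whose sign turned after removal of the GC trend were, at 50 and 100 ng/mL, DNAJC25 (-0.077 and -0.38), DNAJC10 (-0.11 and -0.14), HSP90AB1 (-0.025 and -0.026), DNAJC2 (-0.14 and -0.077), HSPA13 (-0.022 and -0.00094), DNAJB14 (-0.21 and -0.14), DNAJC21 (-0.054 and -0.12) and DNAJC9 (-0.33 and -0.18), at 50 ng/mL HSPB11 (-0.072), and at 100 ng/mL DNAJA2 (-0.10), DNAJC16 (-0.25) and DNAJC22 (-0.065). With the GC content of the longest transcript they were DNAJC25 (-0.025 and -0.33), DNAJC10 (-0.054 and -0.081), DNAJB14 (-0.21 and -0.13) and DNAJC21 (-0.040 and -0.11), and at 100 ng/mL DNAJA2 (-0.044) and DNAJC16 (-0.18).

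No paired analysis was possible because each group holds 1 library and no group holds a replicate to leave out. Depth is unknown, so no precision is given for low members, and values near the filter rest on 2 decimals of FPKM.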
